A study of Equus caballus with 10 samples.

Results

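The TNF superfamily consists of cytokines of the tumour necrosis factor type and the receptors that bind them. Its members were taken from the gene table by name: every gene named TNFSF or TNFRSF followed by a number, and TNF, LTA, LTB, LTBR, CD40, CD40LG, CD27, CD70, FAS, FASLG, EDA, EDAR, EDA2R and RELT. This gave 43 of the 29196 genes, 18 of them ligands and 25 receptors. Of the 43, 34 had reads in at least 5 of the 10 libraries and were tested, 5 had reads in fewer libraries (TNF, CD40LG, TNFSF14, CD27 and TNFRSF13B), and 4 had none in any library (LTB, FASLG, EDAR and EDA2R). No gene named TNFRSF10A, TNFRSF10C or TNFRSF10D was among the 29196.

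The cells were primary tenocytes of the horse, taken after death from the superficial digital flexor tendon and grown in 3D collagen gels for 14 days in medium with serum. In 1 group (PF) the gels received only PF-06650833, a small-molecule inhibitor of the kinase IRAK-4, at 100 nM every day. In the other group (PF + IL-1β) they received the same daily PF-06650833 and, every 3 to 4 days, the inflammatory cytokine IL-1β at 17 ng/ml. Each of 5 donors gave 1 library to each group, from gels that were pooled before RNA isolation, so PF-06650833 was present in all 10 libraries and the comparison was that of adding IL-1β under the inhibitor. Cultures without the inhibitor were not analysed here, and the labels give no age or sex for the donors, which are called donors 1 to 5. Since RNA was taken from whole gels, fewer cells of a type and less RNA per cell cannot be told apart.

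Ligands of this family are mostly membrane proteins that work as trimers and can be cut from the cell surface by proteases such as ADAM10 and ADAM17. Their receptors fall into groups by what they carry inside the cell. Death-domain receptors such as TNFRSF1A and FAS recruit adaptors that can lead to caspase activation. Receptors without a death domain, such as TNFRSF1B, CD40 and TNFRSF4, bind TRAF proteins and signal to NF-κB and the MAP kinases. Soluble or decoy receptors such as TNFRSF11B bind ligands without signalling. IL-1β uses a receptor of another family, whose signal passes through MyD88, IRAK-4 and TRAF6 before it reaches the same NF-κB and MAP kinase cascades. In tendon, TNF and its relatives are studied in inflammation after injury, and the pair of TNFSF11 (RANKL) and TNFRSF11B (osteoprotegerin) is best known for its control of bone-resorbing cells.

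The deposited values were log2 values after a variance-stabilizing transformation, which sets a gene with 0 reads at 3.43 in every library. This scale compresses differences between low values, so the estimated number of reads is given for members with few reads. Estimated depth was 26672336 to 36093461 reads in PF and 27002119 to 33287719 reads in PF + IL-1β. The values carry no correction for transcript length, so levels were not compared between genes. Among 11 tenocyte markers, COL1A1, COL1A2, DCN and LUM had log2 values above 14 in all libraries, TNMD had 0 reads in all 10, and SCX, MKX and TNC were lower in PF + IL-1β, with log2 fold changes of -3.24, -2.85 and -2.04. COL1A1 and COL1A2, the chains of type I collagen, had lower values with IL-1β in all 5 donors, with log2 fold changes of -1.38 and -1.28. They were uncalled by limma without the donor (adjusted p = 0.068 and 0.061) and called lower with the donor block (0.0147 and 0.0169), which raised the tenocyte markers called lower from 3 to 5. DCN went the other way, higher in 5 of 5 donors, with a log2 fold change of 1.01 (adjusted p = 0.268 by limma, 0.0529 with the donor block). LUM had a log2 fold change of 0.33 (adjusted p = 0.693 by limma). FMOD and THBS4 had -1.31 and -1.22 (adjusted p = 0.277 and 0.437 by limma). Among 20 leukocyte markers, 8 had 0 reads in every library, including CD3D, CD3E, CD3G, MS4A1 and CD79B, PTPRC had reads in 1 of 10 libraries, and of the 6 tested 0 were called by limma, with 1 (LAPTM5, lower) at an unadjusted p under 0.05, which was called with the donor block. Their summed normalized count lay between 229 and 1975 in PF and between 219 and 1980 in PF + IL-1β, a spread set mostly by CD14. Estimated reads of CD14, a monocyte marker, were 1458, 234, 0, 0 and 0 in donors 1 to 5 in PF and 1374, 617, 0, 292 and 1044 in PF + IL-1β, a log2 fold change of 2.66 (adjusted p = 0.340 by limma, 0.106 with the donor block). Its part in the results on the members was not tested. Of 8 endothelial markers 6 were tested and 0 called by limma, with 3 higher at an unadjusted p under 0.05.

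A gene was called where limma gave an adjusted p below 0.05 and the log2 fold change, PF + IL-1β against PF, was 1 or more in size. In PF + IL-1β, 3 of the 34 tested members were higher, the receptors TNFRSF18 and TNFRSF4 and the ligand TNFSF11, which is 8.82% of the members against 3.11% of all tested genes. A single member, the receptor TNFRSF13C, was lower, 2.94% of the members against 3.57% of all tested genes. In either direction the share was 11.8% of the members and 6.68% of all 17992 tested genes. With the donor as a block the number of members called lower rose from 1 to 2 by the addition of TNFRSF21, and 14.7% of the members were called against 8.26% of all genes.

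Without the minimum fold change, 10 members passed an adjusted p of 0.05, 7 higher and 3 lower, which is 29.4% of the members against 15.5% of all tested genes. Besides the members called, these were CD40, TNFRSF8, TNFSF4 and RELT, which were higher, and TNFSF12 and TNFRSF1A, which were lower. With the donor block 12 members passed, 7 higher and 5 lower, or 35.3% against 22.2% of all genes. The values of the 2 groups did not overlap for 7 members, 20.6% of those tested against 12.7% of all genes: CD40, TNFRSF18, TNFRSF4 and TNFSF4 were higher and TNFRSF13C, TNFSF12 and TNFRSF1A lower in every library in PF + IL-1β than in any library in PF. For TNFRSF4 and TNFSF4 the lack of overlap rested on few reads, given below. The median log2 fold change was 0.13 for the members and -0.0063 for all tested genes, and the median of its absolute size was 0.485 for the members and 0.250 for all tested genes.

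**Figure D1:**
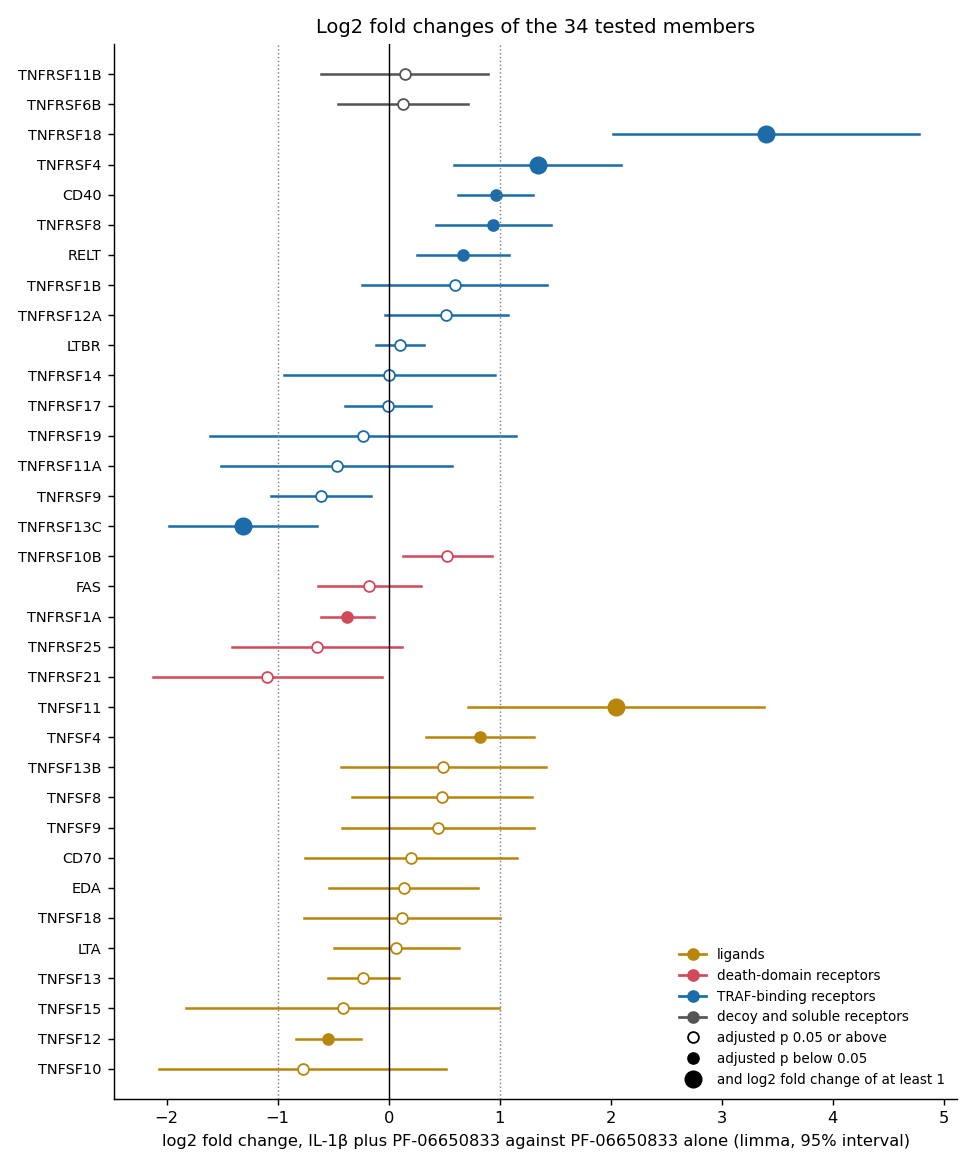
Log2 fold change (x axis, with its 95% interval from limma) of each of the 34 tested members (y axis), PF + IL-1β against PF, coloured by ligand or receptor group. Filled points passed an adjusted p of 0.05 and large points also a log2 fold change of at least 1: TNFRSF18 at 3.40, TNFSF11 at 2.05 and TNFRSF4 at 1.34 lie to the right, TNFRSF13C at -1.31 to the left.

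Of the members, TNFRSF18 had the highest log2 fold change. TNFRSF18 (GITR) is a receptor that binds TRAF proteins and is best known as a costimulator on T cells. In donors 1 to 5 its log2 values were 6.23, 7.46, 6.61, 4.63 and 5.98 in PF. They were 9.37, 10.50, 9.61, 7.61 and 10.82 in PF + IL-1β. Every value with IL-1β was above every value without it, donor 4 was the lowest in both groups, and the other donors spread over 1.5 log2 units or less in each group. TNFRSF18 thus had a log2 fold change of 3.40 (95% interval 2.02 to 4.78, adjusted p = 0.0049 by limma), with within-donor differences of 2.98 to 4.84. In estimated reads this was 7 to 117 per library without IL-1β and 124 to 1537 with it, and the mean normalized count was 14.1 times as high. The call held in all 29 alternative analyses.

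TNFRSF4 (OX40), another costimulatory receptor, is the neighbour of TNFRSF18 in the horse annotation (RefSeq, TB-T2T assembly), with no other protein-coding gene between them. Its estimated reads were 2, 3, 1, 0 and 9 in donors 1 to 5 in PF and 10, 45, 12, 10 and 47 in PF + IL-1β. The groups did not overlap, but the lowest count with IL-1β and the highest without it were 1 read apart. The log2 values averaged 4.10 ± 0.47 (SD, n = 5) and 5.44 ± 0.69 (SD, n = 5), a log2 fold change of 1.34 (adjusted p = 0.0227 by limma), and on the scale of log2(normalized count + 1), which compresses low values less, it was 2.84. The call was lost without the PF library of donor 4 (adjusted p = 0.0557), without the PF + IL-1β libraries of donor 2 (0.0568) or donor 5 (0.0506), and without donor 1 (0.0580) or donor 2 (0.0883) altogether. SDF4, the gene on the other side of TNFRSF4, was also higher, in 5 of 5 donors and without overlap between the groups, with a log2 fold change of 0.56 (adjusted p = 0.0272 by limma). Of all tested genes, 12.7% had groups without overlap, and a link between neighbouring genes was not tested.

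The ligands of these receptors had few reads. TNFSF4 (OX40L), the ligand of TNFRSF4, had 2, 2, 0, 0 and 0 estimated reads in PF and 8, 12, 4, 3 and 2 in PF + IL-1β. With reads in 2 libraries in PF and 5 in PF + IL-1β, it passed the filter through the second group. The groups did not overlap, but the highest log2 value without IL-1β (4.11) and the lowest with it (4.15) both stood for 2 reads. Each donor had more reads with IL-1β, and the log2 fold change was 0.82 (adjusted p = 0.0277 by limma, 0.0075 to 0.0758 over the alternatives), below the minimum for a call. On the scale of log2(normalized count + 1) it was 2.14, above that minimum. TNFSF18, the ligand of TNFRSF18 and a neighbour of TNFSF4 in the annotation, had 0 to 14 reads in PF and 0 to 15 in PF + IL-1β. Its log2 fold change was 0.12 with a 95% interval of -0.76 to 1.00, and the groups overlapped over their whole range.

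**Figure D2:**
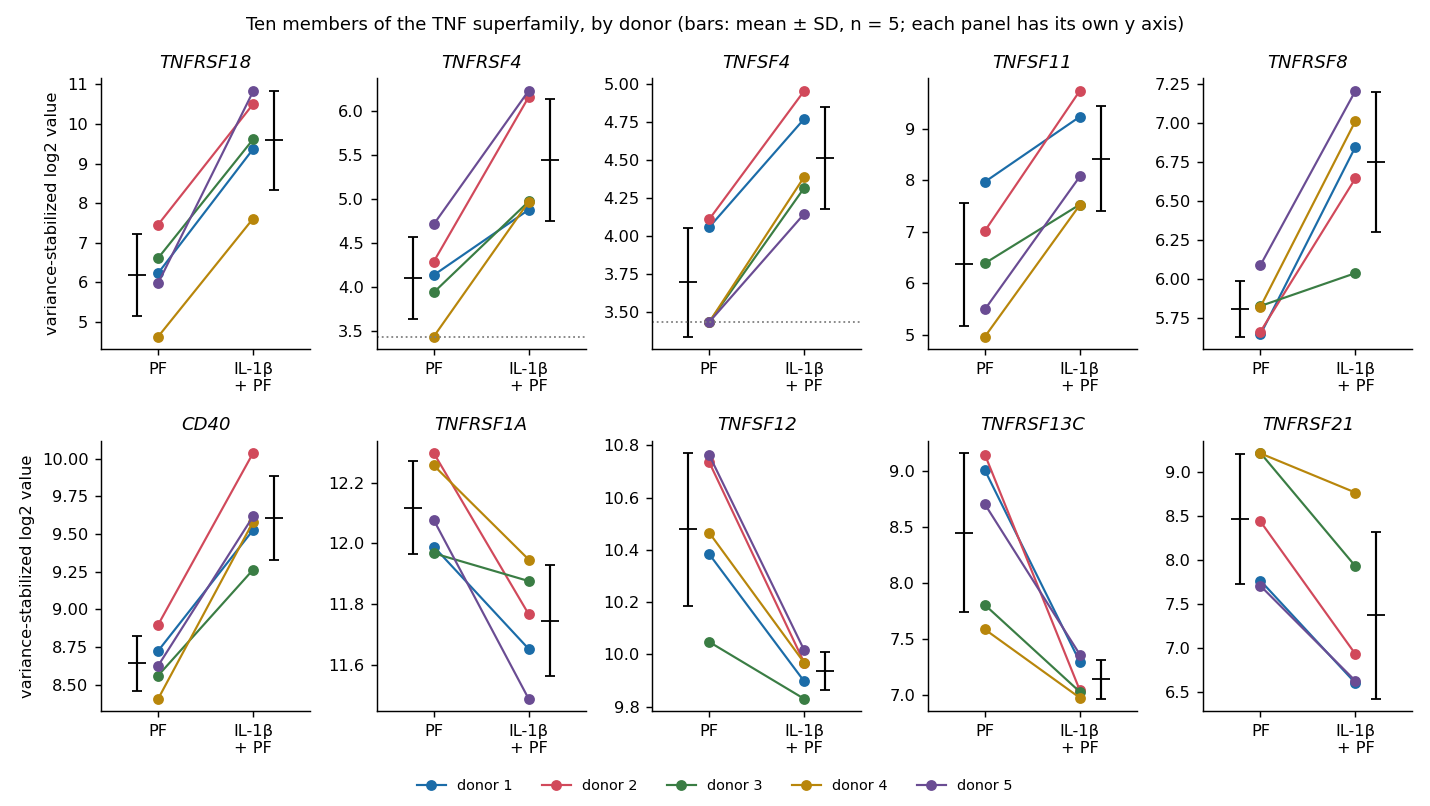
Variance-stabilized log2 value (y axis, its own range in each panel) of 10 members in PF and PF + IL-1β (marked IL-1β + PF); each coloured line joins the 2 libraries of a donor, black bars are mean ± SD of 5 libraries, and the dotted line marks 0 reads. All 5 lines go up for TNFRSF18, TNFRSF4, TNFSF4, TNFSF11, TNFRSF8 and CD40 and down for TNFRSF1A, TNFSF12, TNFRSF13C and TNFRSF21, and the groups overlap for TNFSF11, TNFRSF8 and TNFRSF21.

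The ligand TNFSF11 (RANKL), the cytokine that drives osteoclast formation, was higher in PF + IL-1β. Its log2 values were 7.97, 7.02, 6.39, 4.97 and 5.50 in donors 1 to 5 in PF and 9.23, 9.73, 7.53, 7.52 and 8.07 in PF + IL-1β. In estimated reads this was 201, 82, 49, 12 and 25 against 473, 730, 144, 116 and 213. TNFSF11 was higher in each donor, by 1.14 to 2.72, but donor 1 without IL-1β lay above donors 3 and 4 with it, so the groups overlapped. For TNFSF11 the log2 fold change was 2.05 (95% interval 0.72 to 3.38), with an adjusted p of 0.0425 by limma and 0.0027 with the donor block.

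The call of TNFSF11 depended on the libraries kept when the donor was not in the model. It was lost without the PF library of donor 2 (adjusted p = 0.0551), 3 (0.0683), 4 (0.0927) or 5 (0.0986), and without the PF + IL-1β library of donor 1 (0.1035), 2 (0.1016) or 5 (0.0669). Without both libraries of a donor it was 0.0561, 0.1194, 0.0599, 0.0643 and 0.1407 for donors 1 to 5. The log2 fold change of TNFSF11 stayed between 1.70 and 2.48 over all alternatives. AKAP11, next to TNFSF11 in the annotation, was also higher, in 5 of 5 donors, with a log2 fold change of 0.46 (adjusted p = 0.0174 by limma, 0.0088 with the donor block). An adjusted p below 0.05 by limma was reached by 15.5% of all tested genes.

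The receptors of TNFSF11 were not called. TNFRSF11A (RANK), its signalling receptor, had log2 values of 6.09, 6.59, 4.53, 5.05 and 5.89 in donors 1 to 5 in PF and 4.76, 6.68, 4.72, 4.76 and 4.87 in PF + IL-1β. The differences were -1.33 and -1.02 in donors 1 and 5 and less than 0.3 in size in donors 2, 3 and 4, and donor 2 with IL-1β stood far above the other 4 libraries of its group, at 72 estimated reads against 7 to 10. For TNFRSF11A the log2 fold change was -0.47 (95% interval -1.51 to 0.57, adjusted p = 0.56 by limma). TNFRSF11B (osteoprotegerin), the soluble decoy for TNFSF11 and also a binder of TNFSF10, had 2 to 27 estimated reads in PF and 1 to 21 in PF + IL-1β. Its log2 fold change was 0.14 (95% interval -0.61 to 0.89, adjusted p = 0.83).

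Within a library, the log2 value of TNFSF11 minus that of TNFRSF11B gives their balance; gene length enters its level but cancels in the difference between groups. This balance averaged 1.54 ± 1.68 (SD, n = 5) in PF and 3.44 ± 0.97 (SD, n = 5) in PF + IL-1β. It was higher with IL-1β in all 5 donors, by 0.72, 1.68, 1.94, 2.92 and 2.28, and the donors kept a wide spread, from -0.63 in donor 4 to 3.37 in donor 1 without IL-1β. The mean difference of 1.91 gave p = 0.0635 in an exact two-sided permutation test over libraries and 0.0952 after Benjamini-Hochberg adjustment over the 2 balances tested, and an exact two-sided sign-flip test over donors gave 0.0625, the smallest p that 5 pairs allow. Without the PF library of donor 1 or donor 2, the exact permutation p for TNFSF11 minus TNFRSF11B was 0.0397 (difference 2.37) or 0.0476 (difference 2.25), and over the other alternatives it went up to 0.171 (without both libraries of donor 3).

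**Figure D3:**
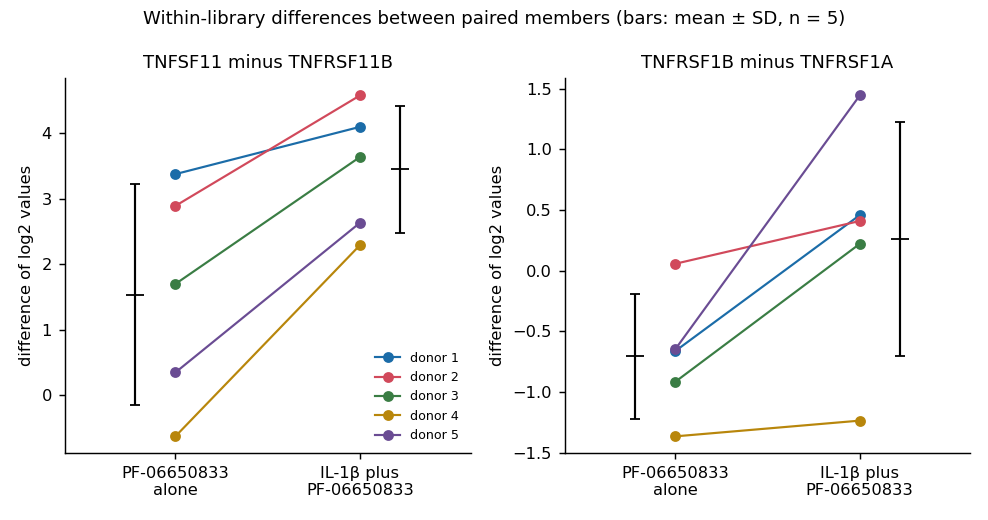
Difference between the log2 values of 2 members in the same library (y axis, log2 units) in PF and PF + IL-1β; lines join the libraries of a donor and black bars are mean ± SD of 5 libraries. TNFSF11 minus TNFRSF11B (left) rises from a mean of 1.54 to 3.44 and TNFRSF1B minus TNFRSF1A (right) from -0.71 to 0.26, with every line rising, donor 4 by 0.13 in the right panel.

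TNF itself was read in 1 library. The PF + IL-1β library of donor 2 held about 9 reads of TNF (log2 value 4.81), and the other 9 libraries held 0, so TNF was not tested. A count of 0 in a library allows up to 3 reads. LTA (lymphotoxin α), which binds the same receptors and lies next to TNF, had 2 to 3 estimated reads per library in PF and 0 to 9 in PF + IL-1β, with a log2 fold change of 0.068 (95% interval -0.50 to 0.63). LTB, on the other side of TNF, had 0 reads in all libraries.

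Both TNF receptors had many reads. TNFRSF1A (TNFR1), the widely expressed receptor with a death domain, had log2 values of 11.99, 12.30, 11.97, 12.26 and 12.08 in donors 1 to 5 in PF and 11.65, 11.77, 11.88, 11.95 and 11.49 in PF + IL-1β. All values with IL-1β were below all values without it, and the within-donor differences were -0.34, -0.53, -0.09, -0.31 and -0.59. For TNFRSF1A the log2 fold change was -0.37 (95% interval -0.61 to -0.13, adjusted p = 0.0407 by limma), with adjusted p between 0.0123 and 0.1627 in the alternatives. The mean normalized count was 4443 ± 475 (SD, n = 5) without IL-1β and 3433 ± 428 (SD, n = 5) with it.

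TNFRSF1B (TNFR2), which binds TRAF proteins, varied more between donors. Its log2 values were 11.33, 12.35, 11.05, 10.89 and 11.43 in PF and 12.11, 12.17, 12.10, 10.71 and 12.93 in PF + IL-1β. Donors 1, 3 and 5 were higher with IL-1β, by 0.78 to 1.50, and donors 2 and 4 lower by less than 0.2, so the groups overlapped. This gave a log2 fold change of 0.59 (95% interval -0.24 to 1.42, adjusted p = 0.33 by limma). The balance of TNFRSF1B minus TNFRSF1A was -0.71 ± 0.52 (SD, n = 5) in PF and 0.26 ± 0.96 (SD, n = 5) in PF + IL-1β, higher in 5 of 5 donors by 0.13 to 2.09. The exact two-sided permutation test gave p = 0.0952 for this difference of 0.97 (0.0952 after adjustment), and 0.0159 without the PF + IL-1β library of donor 4, where the difference was 1.34. The exact two-sided sign-flip test over donors, with all libraries, gave 0.0625, the smallest p that 5 pairs allow. Without both libraries of donor 4 the exact permutation p was 0.0286 and the difference 1.18, while it was 0.229 without those of donor 3 or donor 5, with differences of 0.92 and 0.69.

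CD40, the receptor through which T cells activate B cells and many stromal cells, was the member with the lowest adjusted p in the fit without the donor (with the donor block this was TNFRSF18, at 0.00039 against 0.00151 for CD40). Its log2 values were 8.72, 8.90, 8.56, 8.41 and 8.63 in donors 1 to 5 in PF and 9.53, 10.04, 9.26, 9.58 and 9.62 in PF + IL-1β. The groups did not overlap, the within-donor differences lay between 0.70 and 1.18, and estimated reads were 273 to 359 against 521 to 905. CD40 had a log2 fold change of 0.96 (95% interval 0.63 to 1.30, adjusted p = 0.0023 by limma), just under the minimum of 1, and the adjusted p stayed at or below 0.0185 in all alternatives. The fold change reached the minimum without the PF library of donor 2 (1.03), without the PF + IL-1β library of donor 3 (1.05), and without donor 1 (1.00) or donor 3 (1.03). With all 10 libraries, CD40 also reached it on the scale of log2(normalized count + 0.5) (1.00) and with array weights (1.01). Its ligand CD40LG had 1 estimated read in 1 library, the PF + IL-1β library of donor 3, and 0 in the other 9. NCOA5, next to CD40 in the annotation, had a log2 fold change of 0.016 (adjusted p = 0.91 by limma).

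TNFRSF8 (CD30), a TRAF-binding receptor of activated lymphocytes, was also just under the minimum. Its estimated reads were 27, 24, 28, 34 and 46 in PF and 77, 70, 40, 77 and 109 in PF + IL-1β. Each donor had more with IL-1β, donor 3 the least, and donor 3 with IL-1β lay below donor 5 without it. The log2 fold change was 0.94 (adjusted p = 0.0206 by limma) and passed 1 without the PF library of donor 5 (1.01), without the PF + IL-1β library of donor 3 (1.12) and without donor 3 (1.13). On the scale of log2(normalized count + 1) it was 1.22. Its ligand TNFSF8 (CD30L) had 580 to 2940 estimated reads per library over both groups and a log2 fold change of 0.48 (95% interval -0.33 to 1.29, adjusted p = 0.43).

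The other receptors of this costimulatory type did not all differ the same way. RELT, a TRAF-binding receptor found on blood cells, had 274 to 357 estimated reads in PF and 348 to 686 in PF + IL-1β; its log2 fold change was 0.67 with an adjusted p of 0.0348 by limma, 0.0565 with the donor block and 0.0052 to 0.163 over all alternatives. It was higher with IL-1β in 4 donors and lower in donor 3. TNFRSF9 (4-1BB) had 220 to 275 estimated reads in PF and 109 to 240 in PF + IL-1β, lower in each of the 5 donors. Its log2 fold change was -0.61, with an adjusted p of 0.0692 by limma and 0.0219 with the donor block. The ligand of TNFRSF9, TNFSF9, had a log2 fold change of 0.45 (95% interval -0.42 to 1.31). CD27 had 4 reads in all in PF, in donors 1 and 3, and 1 read in PF + IL-1β, in donor 4, and its ligand CD70 had reads in 5 of the 10 libraries, at most 19.

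TNFRSF13C (BAFF receptor), known from B cells, where it takes the survival signal of TNFSF13B, was lower in PF + IL-1β. Log2 values of TNFRSF13C were 9.01, 9.15, 7.80, 7.59 and 8.71 in donors 1 to 5 in PF and 7.29, 7.04, 7.03, 6.97 and 7.36 in PF + IL-1β. In estimated reads this was 434, 414, 155, 157 and 381 against 111, 97, 96, 75 and 123. The values without IL-1β spread over 1.6 log2 units, those with IL-1β over 0.4, and the groups did not overlap. The within-donor differences were largest in donors 1 (-1.72) and 2 (-2.11), with -1.35 in donor 5, -0.78 in donor 3 and -0.61 in donor 4. TNFRSF13C had a log2 fold change of -1.31 (95% interval -1.98 to -0.65, adjusted p = 0.0145 by limma). The call was lost without both libraries of donor 1 (adjusted p = 0.0698), donor 2 (0.0763) or donor 5 (0.0616), and in no analysis that left out 1 library.

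Other B-cell genes are given beside TNFRSF13C. MS4A1 and CD79B had 0 reads in all 10 libraries and CD79A had reads in 3. The genes on either side of TNFRSF13C in the annotation, SHISA8 and CENPM, had log2 fold changes of -0.45 and 0.26, and neither passed an adjusted p of 0.05. An annotated non-coding RNA overlaps TNFRSF13C in that annotation. The same holds for TNFRSF18 and TNFRSF8, while no annotated gene overlaps TNFRSF4 or TNFSF11. In all, 16 of the 42 members found in the annotation overlap another annotated gene. Whether reads of overlapping genes contributed was not tested for any member.

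The ligands and the other receptors of this branch did not pass the test. TNFSF13B (BAFF) had 9, 4, 7, 8 and 17 estimated reads in donors 1 to 5 in PF and 11, 8, 9, 80 and 9 in PF + IL-1β. Donor 4 with IL-1β stood alone, and the other 9 libraries overlapped. The log2 fold change was 0.49 (95% interval -0.43 to 1.41, adjusted p = 0.48 by limma) and was 0.027 in the analysis that made it smallest. TNFSF13 (APRIL) had within-donor differences of -0.47 to -0.0066, lower in all 5 donors, with a log2 fold change of -0.23 (adjusted p = 0.32). TNFRSF17, the receptor of both ligands on plasma cells, had 3 to 10 reads in every library and a log2 fold change of -0.0043, and TNFRSF13B had 3 and 4 reads in donors 1 and 5 in PF and 0 elsewhere.

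Among the death-domain receptors, TNFRSF21 (DR6) had the lowest log2 fold change. Log2 values of TNFRSF21 were 7.76, 8.43, 9.21, 9.21 and 7.70 in donors 1 to 5 in PF and 6.60, 6.93, 7.93, 8.76 and 6.63 in PF + IL-1β. Donors 3 and 4 were the highest in both groups and each donor was lower with IL-1β, with differences of -0.44 in donor 4 and -1.50 to -1.08 in the others, so the groups overlapped although all donors moved the same way. The log2 fold change of -1.10 had an adjusted p of 0.144 by limma without the donor and 0.0045 with the donor block, where TNFRSF21 was called. It was also called without the PF + IL-1β library of donor 4 (log2 fold change -1.44, adjusted p = 0.0329). Donor differences took 62.2% and the treatment 34.2% of the variance of TNFRSF21 over the 10 libraries.

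FAS, the receptor of FASLG, was not called. Its log2 values were 8.87, 8.61, 8.84, 7.74 and 8.30 in PF and 8.19, 8.27, 8.50, 8.16 and 8.36 in PF + IL-1β. Donors 1, 2 and 3 were lower with IL-1β and donors 4 and 5 higher, and the values with IL-1β lay within the range of those without it. FAS had a log2 fold change of -0.18 (95% interval -0.64 to 0.29, adjusted p = 0.64 by limma), and FASLG had 0 reads in all libraries.

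TNFSF10 (TRAIL), which binds death receptors and TNFRSF11B, differed in sign between donors. Its log2 values were 8.50, 7.03, 6.37, 6.39 and 6.86 in PF and 6.19, 6.81, 5.51, 7.97 and 4.77 in PF + IL-1β. It was lower with IL-1β in donors 1, 2, 3 and 5 (differences of -2.31 to -0.22) and higher by 1.59 in donor 4, which gave a log2 fold change of -0.78 with a 95% interval of -2.07 to 0.52 (adjusted p = 0.42 by limma). TNFRSF10B, a receptor of TNFSF10, was higher in all 5 donors, by 0.057 to 0.87, with a log2 fold change of 0.53 and an adjusted p of 0.0754 by limma and 0.0266 with the donor block. Donor 3 in PF had 498 estimated reads of TNFRSF10B against 295 to 333 in the other donors of the group.

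TNFRSF25 (DR3) and its ligand TNFSF15 did not pass the test. TNFRSF25 had 28 to 88 estimated reads in PF and 8 to 52 in PF + IL-1β, with a log2 fold change of -0.65 (95% interval -1.42 to 0.12). TNFSF15 had 131 estimated reads in donor 4 in PF and 10 or fewer in the other donors of that group, and 0 to 29 in PF + IL-1β. TNFRSF6B, a decoy for FASLG, TNFSF14 and TNFSF15, had a log2 fold change of 0.13 (95% interval -0.46 to 0.72).

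TNFSF12 (TWEAK), a ligand of tissue injury and repair, passed an adjusted p of 0.05 at less than the minimum fold change. Log2 values of TNFSF12 were 10.38, 10.73, 10.05, 10.46 and 10.76 in donors 1 to 5 in PF and 9.90, 9.97, 9.83, 9.97 and 10.02 in PF + IL-1β. The values with IL-1β lay within 0.19 of each other and below every value without it. TNFSF12 had a log2 fold change of -0.54 (95% interval -0.84 to -0.25, adjusted p = 0.0189 by limma, 0.0038 to 0.0898 over the alternatives). Its neighbour TNFSF13 is given above.

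TNFRSF12A (FN14), the receptor of TNFSF12, had log2 values of 13.68, 13.34, 13.79, 13.60 and 13.73 in PF and 14.35, 14.51, 13.48, 13.54 and 14.85 in PF + IL-1β. Donors 1, 2 and 5 were higher with IL-1β, by 0.67 to 1.18, and donors 3 and 4 lower, with differences of -0.31 and -0.067. The 5 values without IL-1β lay within 0.46 of each other, while those with IL-1β spread over 1.37. The log2 fold change was 0.52 (95% interval -0.037 to 1.07, adjusted p = 0.20 by limma). It was uncalled, and the mean normalized count was 1.53 times as high.

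TNFSF14 (LIGHT) was read with IL-1β only, in 4 of 5 libraries. It had 0 estimated reads in all 5 libraries in PF and 0, 25, 1, 58 and 1 in donors 1 to 5 in PF + IL-1β. Donors 2 and 4 held nearly all reads, and with reads in fewer than 5 libraries the gene was not tested.

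Both receptors of TNFSF14 were uncalled. LTBR (lymphotoxin β receptor) had log2 values of 12.59, 12.54, 12.64, 12.73 and 12.58 in PF and 12.79, 12.80, 12.46, 12.62 and 12.93 in PF + IL-1β, higher in donors 1, 2 and 5 and lower in donors 3 and 4. Its log2 fold change was 0.10 with a 95% interval of -0.11 to 0.32, which does not reach the size required for a call. TNFRSF14 (HVEM) had 10 to 91 estimated reads without IL-1β, 13 to 86 with it, and a log2 fold change of 0.0069 (95% interval -0.94 to 0.96). The ligand EDA, of the ectodysplasin branch, had a log2 fold change of 0.14, and its receptors EDAR and EDA2R had 0 reads in all libraries. TNFRSF19 (TROY) had a log2 fold change of -0.23, with differences of -1.25, -1.85 and -1.59 in donors 1, 2 and 5 and of 1.55 and 1.98 in donors 3 and 4.

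The variance of each member was split into a donor share, a treatment share and a rest. The donor took the larger share in 22 of the 34 members (64.7%, against 68.0% of all tested genes). The median share was 42.2% for the donor and 16.7% for the treatment, against 45.8% and 19.1% for all tested genes. The donor share spans 5 donors and the treatment share only 2 groups. A larger donor share therefore does not by itself show that donors differ. The treatment took over 70% for CD40 (83.9%), TNFRSF18 (73.2%) and TNFRSF8 (70.4%), and the donor over 80% for TNFRSF14 (86.6%), TNFRSF6B (84.2%) and EDA (80.2%). All 5 donors were higher with IL-1β for CD40, TNFRSF10B, TNFRSF18, TNFRSF4, TNFRSF8, TNFSF11 and TNFSF4. All 5 were lower for TNFRSF13C, TNFRSF1A, TNFRSF21, TNFRSF9, TNFSF12 and TNFSF13. The share of all tested genes that moved the same way in every donor is not reported here, so these lists are not a result about the family. The difference between treatments was at least 1 on the log2 scale for 16 members in donor 5, 12 in donor 2, 10 in donors 1 and 4 and 7 in donor 3, or 20.6% to 47.1% of the members against 8.09% to 16.7% of all tested genes.

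**Figure D4:**
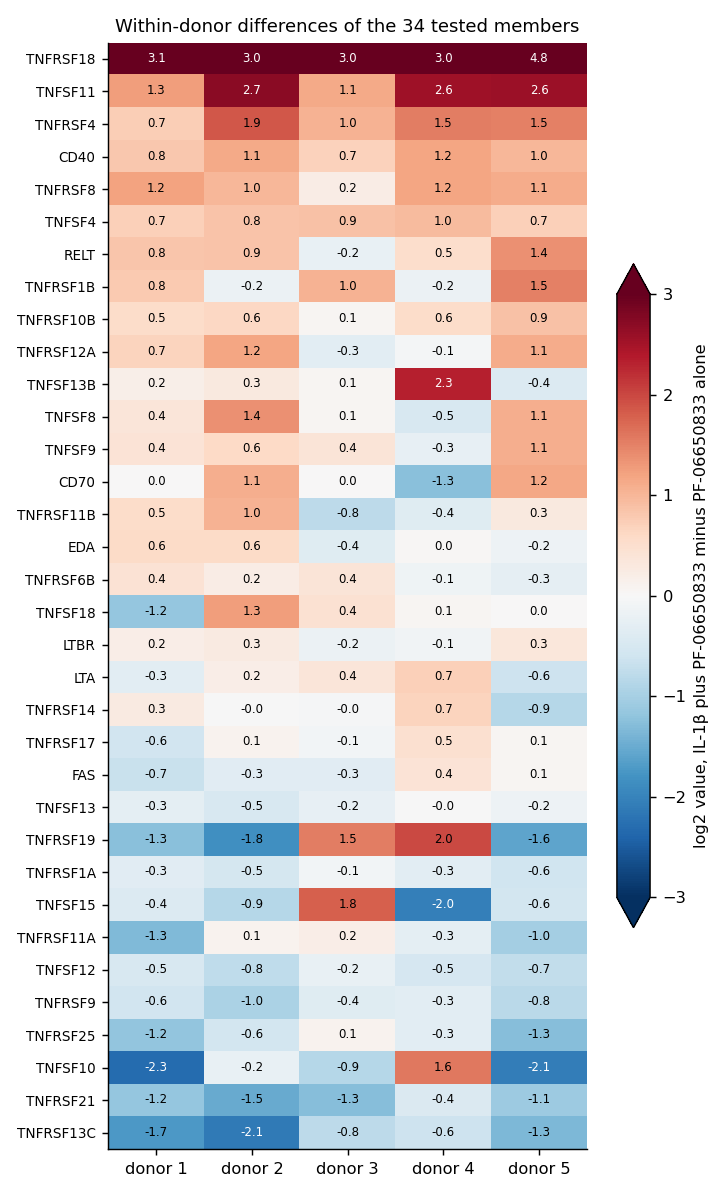
Difference in log2 value between the 2 libraries of each donor (columns), PF + IL-1β minus PF, for the 34 tested members (rows, by mean difference; red higher, blue lower with IL-1β, colours end at 3 and -3). The top 6 rows from TNFRSF18 to TNFSF4 are positive in all donors; TNFRSF19, TNFSF15, TNFSF10, CD70 and TNFSF18 hold differences of both signs above 1 in size.

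The genes that carry the receptors' signal were examined as 5 lists of 66 genes, of which 64 were tested. In PF + IL-1β, 6 were called and all 6 were higher, with and without the donor block, or 9.38% against 6.68% of all tested genes in either direction. At an adjusted p of 0.05 without the minimum fold change 9 were higher and 4 lower, and the median log2 fold change of the 64 genes was 0.12. Of the 17 kinases and the 4 tested shedding genes 0 were called by limma, with 1 kinase higher and 3 lower and 2 shedding genes higher at an unadjusted p under 0.05.

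The called genes stood in 3 of the lists. Of the 13 adaptors, TRAF3IP2 (Act1), the adaptor of IL-17 receptors that also works with TRAF proteins, was higher by 1.53 (adjusted p = 0.000386 by limma). Among the other adaptors TRAF3 was higher by 0.48 and TRAF1 lower by 0.66, both with an adjusted p below 0.05, while TRADD, FADD and RIPK1, which bind to death-domain receptors, had log2 fold changes of 0.066, 0.14 and 0.076. Of the 18 cell death genes, BIRC3 was higher by 2.49 and BIRC2 by 1.09. BIRC2 and BIRC3 are inhibitor of apoptosis proteins that act as ubiquitin ligases in TNF receptor complexes. CASP8 had a log2 fold change of 0.27.

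Of the 12 tested genes that edit ubiquitin chains or restrain the signal, TNFAIP3 (A20) was higher by 2.42 and its partner TNIP1 by 1.03; TNIP1 fell below the minimum without the PF library of donor 1 (0.98), without the PF + IL-1β library of donor 2 (0.85) and without donor 2 (0.93). TNFAIP3 had log2 values of 7.76, 8.20, 8.84, 8.61 and 7.83 in donors 1 to 5 in PF and 10.58, 10.73, 10.14, 11.89 and 10.00 in PF + IL-1β. BIRC3 had 9.38, 10.54, 10.17, 10.09 and 10.39 without IL-1β and 12.63, 13.33, 12.69, 11.20 and 13.20 with it. For neither gene did the groups overlap, and donor 4 had the highest TNFAIP3 and the lowest BIRC3 with IL-1β. The kinases MAP3K7 (TAK1) and MAPK9 were lower by 0.67 and 0.49 at an adjusted p below 0.05, and of the 4 tested shedding genes, ADAM10 was higher by 0.49 (adjusted p = 0.0085) and ADAM17 had a log2 fold change of 0.22 (adjusted p = 0.107).

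**Figure D5:**
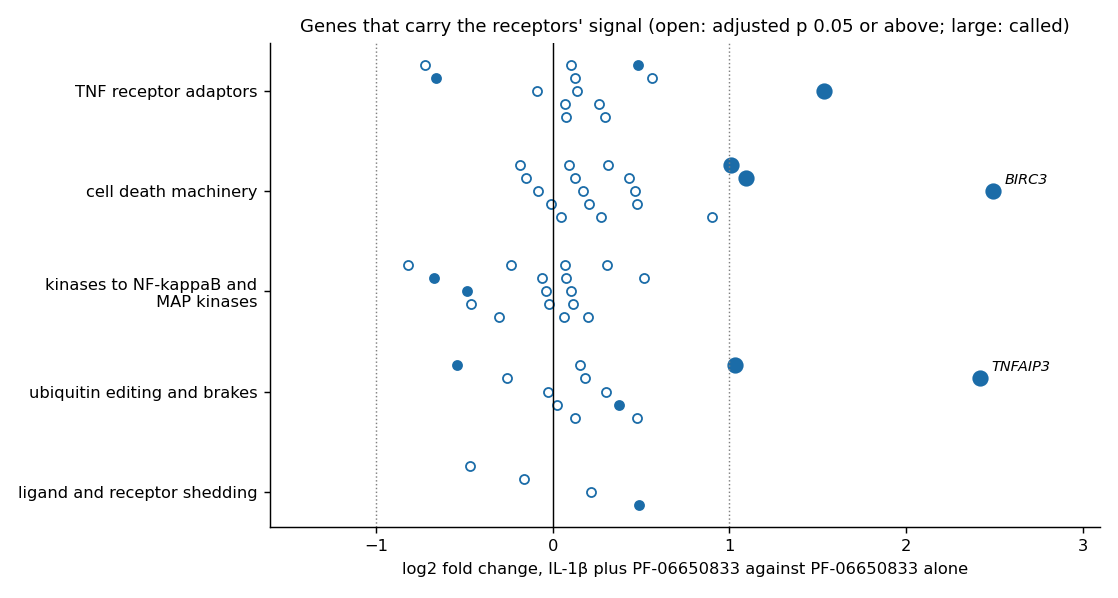
Log2 fold change (x axis), PF + IL-1β against PF, of the 64 tested genes of 5 signalling lists (y axis; points are spread vertically for legibility). Filled points passed an adjusted p of 0.05 and the 6 large points also a log2 fold change of at least 1; the named points are BIRC3 at 2.49 and TNFAIP3 at 2.42.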

How the data were processed

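RNA of 10 libraries, 5 for each group, was sequenced as paired-end reads. The authors assigned these to EquCab3.0 transcripts using Salmon (version 1.8), and tximport summed them to genes. They deposited log2 values of 29196 genes; a variance-stabilizing transformation is not named but follows from the values, with one minimum, 3.43, in all libraries. Inverting it gave normalized counts and approximate reads (70.0% to 86.0% of low values lay within 0.15 of a whole read, 30% if evenly spread; floors cover counting error only). The 17992 genes above that minimum in 5 or more libraries entered limma 3.58.1 in R 4.3.3, using a mean-variance trend and no donor term, and again with donor (replicate number, the same animal) as a block. All adjusted p-values are from limma with Benjamini-Hochberg adjustment over all tested genes. Deviations from group means correlated at 0.367 to 0.506 within donors and -0.266 to 0.0869 between donors. The fit was also run on simulated counts that had no donor effect and changes only in genes with higher counts. That run therefore does not cover donor correlation or members with few reads. Members called, 12 members of known roles and called genes of the lists are given in full where reported, other members by ranges. Members, lists and tests were chosen with earlier results of these data known. Alternatives were other thresholds, filters, scales, normalizations and variance models, and leaving out each library or donor. RefSeq annotation of the TB-T2T assembly, which holds 42 of the 43 members, served for neighbouring genes only. The authors' DESeq2 test was not repeated, since DESeq2 needs counts. Some genes of the lists are counted but not reported here by name.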

Additional observations from a re-analysis of the deposited data

Results flagged for a closer look

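Over the 43 members and the balances given above, 78 groups of 5 libraries with any spread were examined. A library was flagged where its gap to the nearest of the others took more of the group's range than Dixon's 95% critical value allows. This flagged 8, where chance would give about 3.9. In 3 of them the library held the only reads of its group and was bound to be flagged, so the comparison with 3.9 does not hold for them. These were CD27 in donor 4 in PF + IL-1β (log2 value 3.95, 1 read), CD40LG in donor 3 in PF + IL-1β (3.91, 1 read) and TNF in donor 2 in PF + IL-1β (4.81, about 9 reads).

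In the other 5 all libraries of the group held reads. TNFRSF10B was high in donor 3 in PF (9.39, 498 estimated reads against at most 333). TNFRSF11A was high in donor 2 in PF + IL-1β (6.68, 72 reads against at most 10), TNFSF13B in donor 4 of the same group (7.06, 80 reads against at most 11), TNFSF15 in donor 4 in PF (7.36, 131 reads against at most 10), and TNFRSF11B was low in donor 3 in PF + IL-1β (3.90, 1 read against at most 21).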

How the results depend on the processing

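Over 29 alternative analyses, including 15 with a library or donor left out, the call of TNFRSF18 held in all, and 25 of the 34 tested members kept their direction. The number of members called higher, 3 as reported, was 7 without the minimum fold change (7 with the replicate block as well), 1 at an adjusted p below 0.01, 5 on the scale of log2(normalized count + 1) (5 with the replicate block on that scale) and 6 with a pseudocount of 0.5, where 1 was lower, and 1 to 5 when a library or donor was left out. The number called lower, 1 as reported, was 2 with the replicate block, 3 without the minimum fold change, 5 with both, 2 with the replicate block on log2(normalized count + 1), 2 with array weights, 0 by limma at an adjusted p below 0.01 (5 at an unadjusted p under 0.05), and 0 to 2 when a library or donor was left out. Signalling genes called, 6 as reported, were 13 without the minimum fold change, 19 with the replicate block as well, and 4 to 7 when a library or donor was left out. The replicate block changed no other call among the members and signalling genes; among the marker lists it raised those called lower from 3 to 5 for tenocytes and from 0 to 1 for leukocytes. TNFSF11 also lost its call without the mean-variance trend (adjusted p = 0.0523) and with a robust trend, and lost it in 15 of the 29 analyses, while TNFRSF4 lost it in 6 and TNFRSF13C in 4.

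Leaving out a library or donor moved TNFSF11 minus TNFRSF11B between 1.37 and 2.37 and TNFRSF1B minus TNFRSF1A between 0.67 and 1.34. The members that changed direction were uncalled throughout, with log2 fold changes, when a library or donor was left out, of -0.10 to 0.56 for CD70, -0.079 to 0.28 for EDA, -0.10 to 0.27 for LTA, -0.080 to 0.41 for TNFRSF11B, -0.31 to 0.26 for TNFRSF14, -0.12 to 0.14 for TNFRSF17, -0.79 to 0.17 for TNFRSF19, -0.97 to 0.18 for TNFSF15 and -0.16 to 0.44 for TNFSF18. LTA was -0.019 with a pseudocount of 0.5 and -0.013 with array weights, TNFRSF14 -0.24 with array weights, and TNFRSF17 0.026 with median centring. The cause of these changes was not tested. Members with fewer than about 10 reads per library are limited by depth.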
